A study of Mus musculus with 2 samples.

Results

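The Mir200, Mir203 and Mir205 genes are microRNA genes best known from epithelial tissues. They were taken as the 7 genes Mir200b, Mir200a, Mir429, Mir200c, Mir141, Mir203 and Mir205, matched by their GENCODE M21 symbol, and make up 7 of the 1973 microRNA genes in the count tables. All 7 had at least 1 count in both libraries, and 699 of the 1973 genes had a count in either. The genes lie at 4 loci: a cluster of 3 on chromosome 4, a cluster of 2 on chromosome 6, Mir203 on chromosome 12 and Mir205 on chromosome 1.

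The counts come from microRNA sequencing, in which small RNAs are ligated to adapters and read directly. The libraries were made from hindbrain tissue of B6NCrl mice on the day of birth (postnatal age 0 days). There was 1 group of 2 animals, pup 3 and pup 1, with 1 pup per library. No treatment, mutation or transgene is given in the labels. Same-strand counts over all microRNA genes came to 3012320 in pup 3 and 2459757 in pup 1. Values are CPM, counts scaled to a library total of 1000000. A gene with no count could have reached 3 counts by counting error, which is 0.996 CPM for pup 3 and 1.22 CPM for pup 1. Intervals are exact at 95% and cover counting error only.

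MicroRNAs silence messenger RNAs, and they find their targets mainly through the seed, bases 2 to 8 from the 5′ end. The Mir200 family is known for repressing the transcription factors Zeb1 and Zeb2, which in turn repress the Mir200 loci and E-cadherin, so that the family marks the epithelial state. In the embryonic midbrain and hindbrain the family is also known to act on Sox2 and E2f3 in neural progenitors. Mir203 is known for limiting the proliferation of epidermal progenitors by repressing p63, and Mir205 is known from stratified epithelia and skin. The series has no condition to compare, so the questions the data address are how abundant these genes were in newborn hindbrain, how the loci compare and how closely both pups agree.

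The mature microRNAs below are shown because their seeds sort the 5 Mir200 genes into 2 groups that cut across the clusters. Each is the arm of the hairpin usually taken as the active one, with its seed in capitals, from RefSeq (GRCm38.p6).
miR-200b-3p (chr4:156055685-156055706, minus strand): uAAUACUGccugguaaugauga
miR-429-3p (chr4:156053916-156053937, minus strand): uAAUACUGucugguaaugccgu
miR-200c-3p (chr6:124718324-124718346, minus strand): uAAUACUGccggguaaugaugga
miR-200a-3p (chr4:156054911-156054932, minus strand): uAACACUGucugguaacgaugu
miR-141-3p (chr6:124717917-124717938, minus strand): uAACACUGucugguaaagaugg
miR-203-3p (chr12:112130927-112130948, plus strand): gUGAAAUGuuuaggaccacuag
miR-205-5p (chr1:193507503-193507524, minus strand): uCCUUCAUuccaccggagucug

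The first 3 shared the seed AAUACUG and the next 2 the seed AACACUG, which differ by the substitution U4C (counted from 1 at the 5′ end, miR-200b-3p first). Among 1738 mature mouse microRNAs in the RefSeq table, no others carried either seed, and the seeds of miR-203-3p and miR-205-5p were found once each. Each cluster held at least 1 gene of each Mir200 seed. Between clusters, miR-200b-3p and miR-200c-3p were the same at 20 of 22 positions (U11G and A22G), and miR-200a-3p and miR-141-3p at 20 of 22 (C17A and U22G). The longest run shared with any other of 1005 RefSeq hairpins was 16 nt, between miR-200a-3p and miR-141-3p, and 9 to 12 nt for the other 5. This bears on the counts, because the layout of the tables is that of a counter which drops reads with more than 1 mapped position.

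Mir203 was by far the most abundant of the 7 genes. It had 1982 counts (658 CPM) in pup 3 and 1366 counts (555 CPM) in pup 1, a mean of 607 ± 72.6 CPM (SD, n = 2, as for all values with ±). It held 76.3% of the counts of the 7 genes in pup 3 and 77.8% in pup 1, so that any sum over the 7 is mostly Mir203. Among the 699 genes with a count, it stood at position 128 by mean CPM. Positions in this order leave out reads with more than 1 mapped position. Genes whose mature sequence also lies at other loci can thus stand too low in it. Mir203 (ENSMUSG00000065574.1) lies at chr12:112130880-112130955 on the plus strand of mm10 and overlaps no other GENCODE M21 gene. The nearest one is Aspg, which codes for an asparaginase and ends 3.32 kb upstream.

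Mir205 had the smallest spread between the pups of the 7 genes, relative to its level. It had 145 counts (48.1 CPM, interval 40.6 to 56.6) in pup 3 and 114 counts (46.3 CPM, interval 38.2 to 55.7) in pup 1. The mean was 47.2 ± 1.27 CPM. This spread is narrower than either counting interval, so with 2 pups it does not mark the gene as steady. Mir205 (ENSMUSG00000065533.1, chr1:193507463-193507530, minus strand) lies within an exon of the long non-coding RNA gene 4631405K08Rik. Counts of Mir203 were 13.7 times those of Mir205 in pup 3 (interval 11.5 to 16.3) and 11.98 times in pup 1 (9.89 to 14.6). The intervals of the pups overlapped.

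The chromosome 4 cluster was carried mainly by Mir429. In transcription order it holds Mir200b (ENSMUSG00000065549.2, chr4:156055681-156055750), Mir200a (ENSMUSG00000065400.1, chr4:156054896-156054985) and Mir429 (ENSMUSG00000065427.1, chr4:156053905-156053987), all on the minus strand within introns of Ttll10, a gene of the tubulin tyrosine ligase-like family. They also lie within the non-coding gene Gm13648, where Mir429 is exonic and the others intronic. The whole cluster spans 1846 bases, with 695 bases between Mir200b and Mir200a and 908 between Mir200a and Mir429.

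Mir429 had 280 counts (93.0 CPM) in pup 3 and 175 counts (71.1 CPM) in pup 1, a mean of 82.0 ± 15.4 CPM. Mir200b had 89 counts (29.5 CPM) in pup 3 and 52 counts (21.1 CPM) in pup 1, a mean of 25.3 ± 5.94 CPM. Mir200a had 16 counts (5.31 CPM) in pup 3 and 10 counts (4.07 CPM) in pup 1, a mean of 4.69 ± 0.881 CPM. Although the 3 genes lie within the same annotated host genes, the middle one was the lowest and the last the highest in both pups. Counts of Mir429 were 17.5 times those of Mir200a in both pups, with intervals of 10.6 to 31.0 in pup 3 and 9.29 to 37.1 in pup 1. Counts of Mir200b were 5.56 times those of Mir200a in pup 3 (3.24 to 10.2) and 5.20 times in pup 1 (2.61 to 11.5). Mir429 also exceeded Mir200b, by 3.15 times in pup 3 (2.47 to 4.04) and 3.37 times in pup 1 (2.46 to 4.68). No interval of these ratios included 1, and for each ratio the intervals of the pups overlapped.

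**Figure D1:**
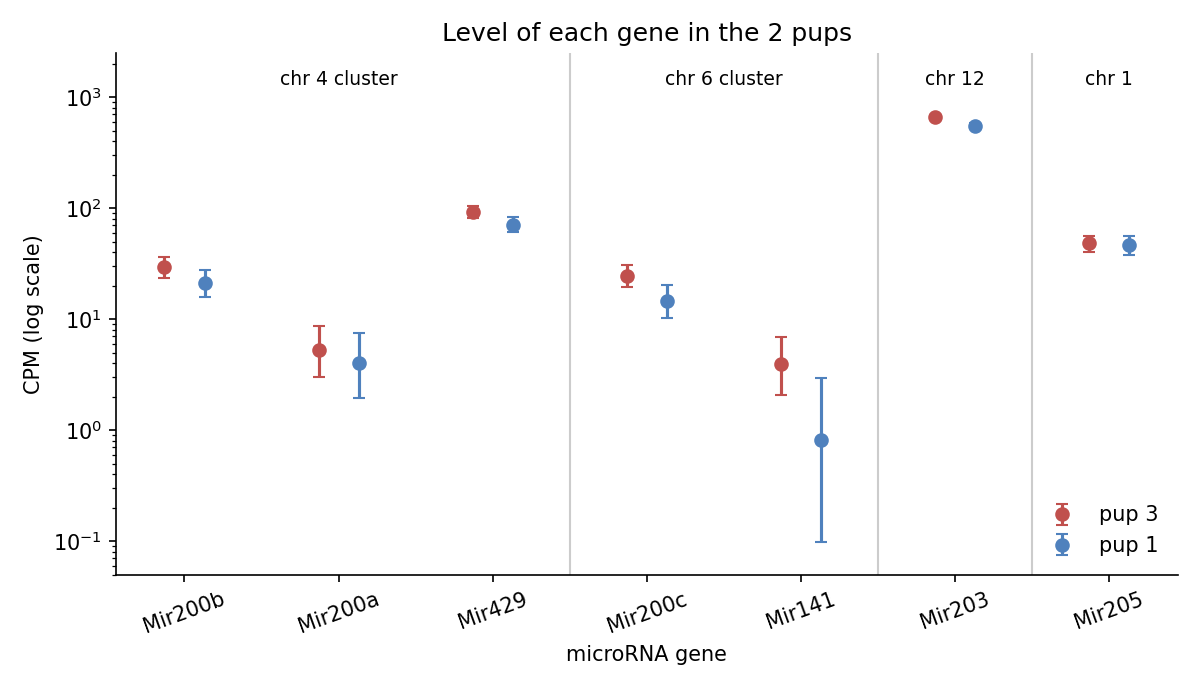
CPM (log scale) of the 7 genes in pup 3 (red, left) and pup 1 (blue, right), grouped by locus, with bars for the exact 95% counting interval. Mir203 stands near 600 CPM in both pups, and Mir200a and Mir141 are the lowest gene of their clusters.

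The hairpins of the genes that stood farthest apart in the chromosome 4 cluster are shown with both annotated mature arms in capitals, 5′ arm first, because a count in the tables covers both arms together and the arms cannot be told apart.
Mir200a hairpin (chr4:156054896-156054985, minus strand): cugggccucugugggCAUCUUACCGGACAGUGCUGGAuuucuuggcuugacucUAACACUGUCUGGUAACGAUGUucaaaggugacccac
Mir429 hairpin (chr4:156053905-156053987, minus strand): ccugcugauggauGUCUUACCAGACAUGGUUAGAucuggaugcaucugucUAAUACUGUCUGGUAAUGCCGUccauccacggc

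The Mir200a hairpin is 90 nt long with 52.2% GC and a folding energy of -42.9 kcal/mol by RNAfold. The Mir429 hairpin is 83 nt long with 49.4% GC and -34.7 kcal/mol. The hairpins of the other 5 genes were 68 to 76 nt long, with 48.7% to 55.1% GC and energies from -30.8 to -35.2 kcal/mol. These energies are totals over the hairpin, not per nt, and Mir200a has the longest hairpin of the 7. The part of these features in the counts was not tested. The annotated mature arms of the 7 genes were 21 to 23 nt long, and each read is 1 small RNA, so counts were compared between genes without scaling by length. Ligation and amplification are known to favour some small RNA sequences over others, and their part in differences between genes was not tested.

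The chromosome 6 cluster was the lowest of the 4 loci. It holds Mir200c (ENSMUSG00000065462.2, chr6:124718322-124718390) and, 336 bases downstream, Mir141 (ENSMUSG00000065474.1, chr6:124717914-124717985), on the minus strand in an intron of the non-coding gene Gm15884, between Ptpn6, which codes for the tyrosine phosphatase SHP-1, and Phb2, which codes for a prohibitin. Mir141 also overlaps part of an exon of Gm29008. Mir200c had 74 counts (24.6 CPM) in pup 3 and 36 counts (14.6 CPM) in pup 1, a mean of 19.6 ± 7.02 CPM. Mir141 had 12 counts (3.98 CPM, interval 2.06 to 6.96) in pup 3 and 2 counts (0.813 CPM, interval 0.0985 to 2.94) in pup 1, a mean of 2.40 ± 2.24 CPM. In pup 1 Mir141 was thus under the limit that a count of 0 allows. Counts of Mir200c were 6.17 times those of Mir141 in pup 3 (3.33 to 12.5) and 18.0 times in pup 1 (4.63 to 154), intervals that overlap.

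Set against each other, the chromosome 4 cluster had 385 counts (128 CPM) in pup 3 and 237 (96.4 CPM) in pup 1, while the chromosome 6 cluster had 86 counts (28.5 CPM) in pup 3 and 38 (15.4 CPM) in pup 1. The ratio of chromosome 4 to chromosome 6 counts was 4.48 in pup 3 (3.54 to 5.72) and 6.24 in pup 1 (4.41 to 9.03), a mean log2 ratio of 2.40 ± 0.34. The higher level of the chromosome 4 cluster came mainly from Mir429. With the median over each cluster's genes in place of the sum, the log2 ratio was 1.25 ± 0.28. For Mir200b and Mir200c, one of the pairs most alike in sequence, the ratio of counts was 1.20 in pup 3 (0.874 to 1.66) and 1.44 in pup 1 (0.926 to 2.27), and both intervals include 1. Single-locus reads of the clusters' closest relatives can be told apart only where they cover a differing base, and how the aligner treated mismatches is not given in the sources used here.

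Grouped by the seed of the arm shown above, the Mir200 genes were uneven. The 3 genes with the seed AAUACUG had 443 counts (147 CPM) in pup 3 and 263 (107 CPM) in pup 1. The 2 genes with the seed AACACUG had 28 counts (9.30 CPM) in pup 3 and 12 (4.88 CPM) in pup 1. A count covers both arms of a gene, and the other arms carry other seeds, so these are counts of genes and not of seeds. The ratio of counts of the first group of genes to the second was 15.8 in pup 3 (10.8 to 24.1) and 21.9 in pup 1 (12.3 to 43.0). The mean log2 ratio was 4.22 ± 0.33. In both clusters the gene with the AACACUG seed was the lowest.

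**Figure D2:**
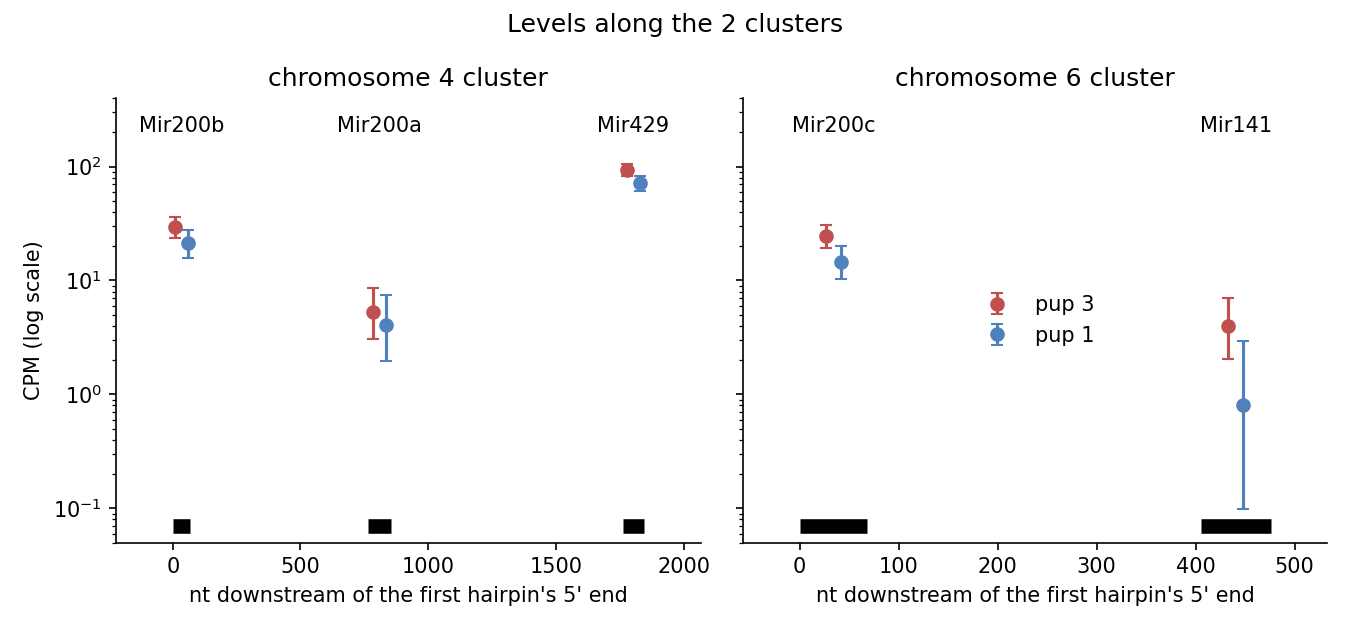
CPM (log scale) of each gene of the chromosome 4 cluster (left) and chromosome 6 cluster (right), at its distance in nt downstream of the 5′ end of the first hairpin. Points are pup 3 (red, left) and pup 1 (blue, right) with exact 95% counting intervals, and black bars mark the hairpins. Mir200a in the middle of its cluster lies below both neighbours.

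The order of mean level over the 7 genes was Mir203, Mir429, Mir205, Mir200b, Mir200c, Mir200a and Mir141. Of neighbours in this order, only Mir200b and Mir200c had ranges over the 2 pups that overlapped, the lower value of Mir200b being 21.1 CPM and the higher value of Mir200c 24.6 CPM. For Mir200a and Mir141 the ranges were apart by 4.07 against 3.98 CPM, and in pup 3 the ratio of their counts was 1.33 (0.592 to 3.09), so their order was not resolved in that pup. With 2 values per gene an exact two-sided permutation test cannot give a p below 0.333, so none was run between genes. By mean CPM, Mir429, Mir205, Mir200b, Mir200c, Mir200a and Mir141 stood at positions 240, 259, 280, 284, 354 and 400.

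**Figure D3:**
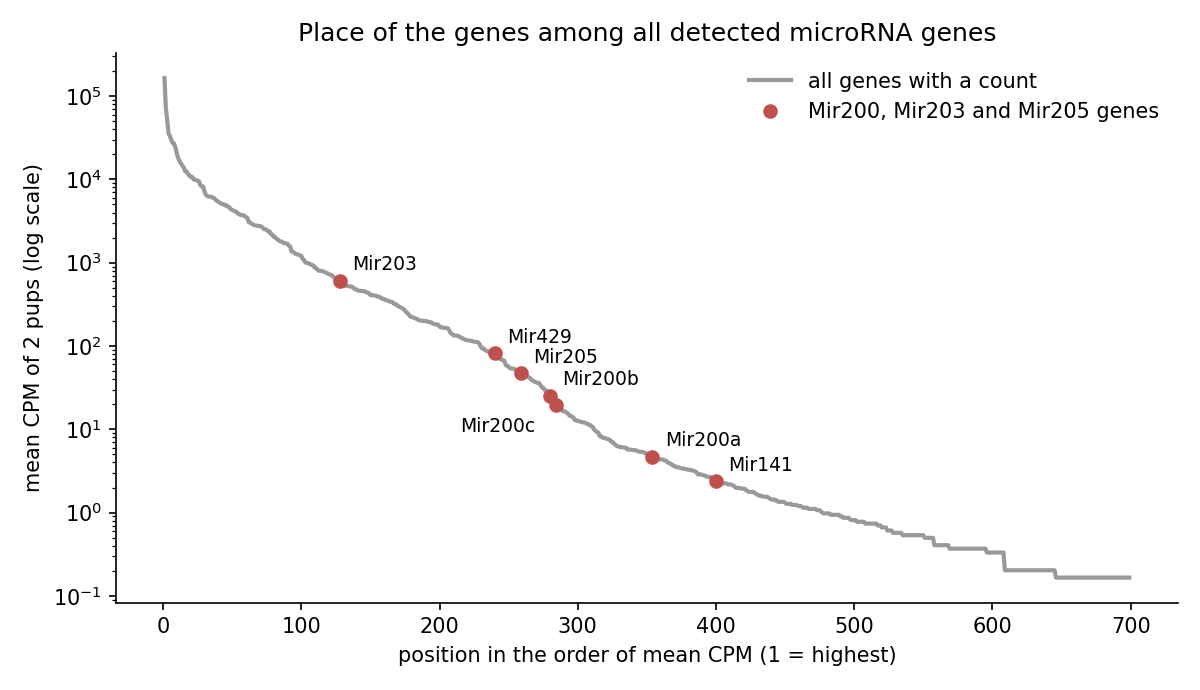
Mean CPM over 2 pups (log scale) of the 699 genes with a count, against their position in that order (grey line), with the 7 genes as red points. Mir203 stands at position 128 and the other 6 between 240 and 400.

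Other genes lay close to these levels. With likeness measured as Euclidean distance of log2(CPM + 1) over the 2 libraries, the 2 genes nearest to Mir203 were Mir1264, at 665 CPM in pup 3 and 569 in pup 1 (distance 0.039), and Mir384, at 676 CPM in pup 3 and 539 in pup 1 (distance 0.057). Mir551b and Mir574 were nearest to Mir205, Mir152 and Mir301b to Mir429, Mir669e and Mir92-2 to Mir200b, Mir1912 and Mir344f to Mir200c, and Mir6934 and Mir450-2 to Mir200a. Their distances ranged from 0.025 to 0.18. Over only 2 libraries of 1 tissue, this says no more than that the levels were alike.

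Hindbrain tissue can hold neurons as well as choroid plexus, ependyma with its multiciliated cells, and other cells. MicroRNAs of such cell types were therefore set beside the 7 genes, whose summed level was 862 CPM in pup 3 and 713 CPM in pup 1. Lists named after epithelia of other organs (ear, eye and nose, and gut, kidney and cornea) were added. Their levels do not show that those epithelia were in the sample. In a bulk sample, few cells with a high level cannot be told apart from many cells with a low one. The neuronal list had all 8 genes measured and summed to 41137 CPM in pup 3 and 38260 in pup 1, with 5 of 8 at 10 CPM or more in both pups. It was led by Mir149 (15600 CPM in pup 3 and 17477 in pup 1). The 3 genes below 10 CPM all encode miR-124, the best known neuronal microRNA. The highest of them was Mir124a-1 at 5.64 CPM in pup 3 and 4.88 CPM in pup 1. Reads that map to more than 1 of these genes are not counted at any of them. These values therefore do not give the level of miR-124, and the neuronal sum can be too low. How many reads were lost in this way was not tested. The choroid plexus list, with 5 of 6 genes at 10 CPM or more (Mir211 fell short at 9.96 CPM in pup 3, with 13.8 CPM in pup 1), summed to 11624 CPM in pup 3 and 12716 in pup 1. It was led by Mir1298 and Mir204. The multiciliated list, with 3 of 5 genes at 10 CPM or more, summed to 9311 CPM in pup 3 and 9205 in pup 1, led by Mir449a and Mir34c. Mir449b (2.32 CPM in pup 3 and 4.47 CPM in pup 1) and Mir449c (4.32 CPM in pup 3 and 6.50 CPM in pup 1) fell short. The list of sensory epithelia of ear, eye and nose, Mir96, Mir182 and Mir183, summed to 2034 CPM in pup 3 and 2795 in pup 1.

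Nearest in sum to the 7 genes was a list of microRNAs known from epithelia of gut, kidney and cornea, with 1061 CPM in pup 3 and 1059 in pup 1. Of its 7 genes, 5 had 10 CPM or more in both pups. They were Mir375, also known from endocrine cells (495 CPM in pup 3 and 529 CPM in pup 1), Mir31 (293 CPM in pup 3 and 263 CPM in pup 1), Mir194-2, Mir192 and Mir184. The lowest of these was Mir184, at 31.2 CPM in pup 3 and 32.1 CPM in pup 1. Reads with more than 1 mapped position are left out for every list, so any of the sums can be too low. The genes of the gut, kidney and cornea list under 10 CPM were Mir215 (7 counts in pup 3 and 4 in pup 1) and Mir194-1 (1 and 4). No gene of any of the lists was at 0 in both pups. Mir194-1, and Mir124a-3 with 2 counts in pup 3 and 3 in pup 1, were nonetheless close to the 3 counts that a count of 0 allows. Which cells the Mir200, Mir203 and Mir205 reads came from was not tested.

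**Figure D4:**
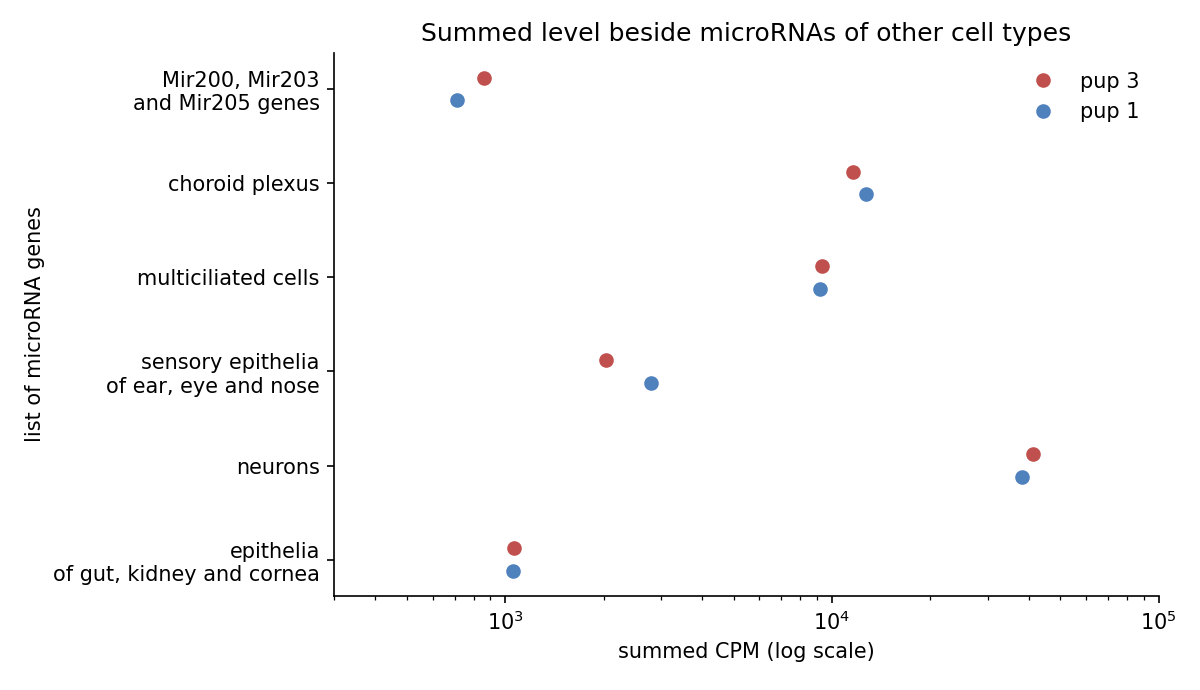
Summed CPM (log scale) in pup 3 (red, upper) and pup 1 (blue, lower) of the 7 genes and of 5 lists of microRNAs known from other cell types. The 7 genes sum to 862 CPM in pup 3 and 713 CPM in pup 1, below each of the other lists.

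Between the pups, the 7 genes were level or somewhat higher in pup 3. An exact binomial test set each gene's counts in pup 3 against those in pup 1, given library totals scaled by TMM (trimmed mean of M-values, which balances the bulk of the genes). It was run on the 395 genes that reached 10 counts in 1 library or both, with Benjamini-Hochberg adjustment over all 395 at 0.05. With no replicate on either side, this compares 2 libraries and not a condition. Of the 7 genes, 3 passed the test as higher in pup 3, 0 as lower and 4 did not pass. Over all tested genes 25.6% were called higher and 21.3% lower in pup 3, and with 7 genes a share of 3 is not a result set apart from that background. The median log2 fold was 0.33 over the 7 genes and 0.020 over all tested genes. The fold was above 0 for 7 of 7, for Mir205 only at 0.00028, against 208 of 395 genes (52.7%). Because the 5 Mir200 genes lie in 2 clusters, these are not 7 separate signs.

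Mir203 was higher in pup 3 by a log2 fold of 0.19 (interval 0.091 to 0.29, adjusted exact binomial p = 0.00046), a size that 231 of the 395 genes reached or exceeded in either direction. Mir429 was higher by a log2 fold of 0.33 (0.055 to 0.61, adjusted exact binomial p = 0.039), and Mir200c by 0.68 (0.10 to 1.31, adjusted exact binomial p = 0.036). The calls of Mir429 and Mir200c were lost when all 699 genes with a count were tested together (adjusted exact binomial p = 0.069 and 0.063). Mir203 kept its call there, and of the 7 genes it alone had more than 1000 counts in each library.

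The other 4 genes did not pass. Mir141 had the highest fold of the 7, 1.98 on the log2 scale, from 12 counts in pup 3 and 2 in pup 1, and its interval ran from 0.072 to 5.44 (adjusted exact binomial p = 0.061). Mir200b had a log2 fold of 0.42 (-0.080 to 0.95, adjusted exact binomial p = 0.17) and Mir200a one of 0.31 (-0.90 to 1.63, adjusted exact binomial p = 0.83). Mir205 had a log2 fold of 0.00028 (-0.36 to 0.37, adjusted exact binomial p = 1). Its sign depends on the prior count, and it turned to -0.0011 with a prior of 1. The intervals of the chromosome 4 cluster's genes overlapped one another, and summed over the cluster the log2 fold was 0.35 (0.12 to 0.59), beside 0.82 (0.27 to 1.42) for the chromosome 6 cluster. These 2 intervals overlapped as well, and the difference between the loci was not tested.

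Genes of the other lists differed in both directions. In the same test, 1 of 6 tested choroid plexus genes was higher in pup 3 and 2 were lower, and of 5 multiciliated genes 1 was higher and 1 lower. Of 3 sensory genes 1 was lower (Mir182, log2 fold -0.93) and of 5 tested genes of gut, kidney and cornea 1 was lower (Mir375, log2 fold -0.15), with 0 higher in both lists. Of 6 tested neuronal genes, 4 were higher and 1 lower. Over all 395 tested genes, 25.6% were called higher and 21.3% lower in pup 3. Smaller folds pass where counts are high, so these tallies do not compare the lists. Mir137 passed at a log2 fold of 0.14, with 39849 counts in pup 3 and 28503 in pup 1. Mir124a-1 did not pass at 0.14, with 17 counts in pup 3 and 12 in pup 1. The median log2 fold was -0.033 for choroid plexus, -0.19 for multiciliated cells, -0.047 for sensory epithelia, -0.055 for gut, kidney and cornea and 0.15 for neurons. The part of cell composition in the folds of the Mir200, Mir203 and Mir205 genes was not tested.

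**Figure D5:**
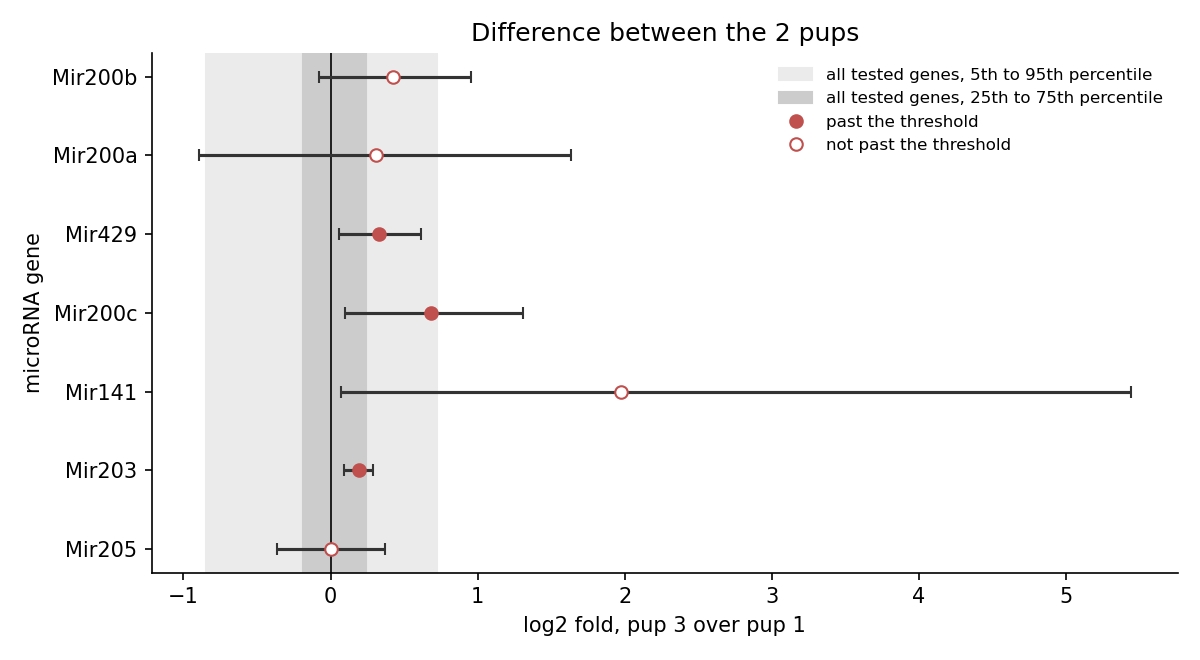
Log2 fold of pup 3 over pup 1 for each gene with its exact 95% counting interval, filled where the adjusted test passed. Grey bands span the 25th to 75th (dark) and 5th to 95th (light) percentiles of the folds of all 395 tested genes, and only Mir141, with 2 counts in pup 1, lies above the light band.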

How the data were processed

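Small RNA libraries of hindbrain tissue from 2 newborn pups, 1 group, were analysed from tables of raw counts per microRNA gene that the authors deposited. The reads were aligned to mm10 with GENCODE M4 per the listings deposited with them. No source used here names the aligner, the counter or the trimming. The strand of each column was inferred from the layout (the either-strand column is the sum of the others), and the same-strand column was used. Rows that name no gene stayed out of totals: unmapped reads made up 12.4% of pup 3 and 13.7% of pup 1, and multimapped reads 42.0% of pup 3 and 40.2% of pup 1. Symbols, positions and host genes come from GENCODE M21 (same assembly, identifier version removed) and mature sequences from RefSeq. The labels name separate pups, and the series gives no condition.

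TMM factors came from edgeR 4.0.16 and, as an alternative, size factors from DESeq2 1.42.0 (R 4.3.3). With 1 library a side, edgeR's quasi-likelihood test could not be fitted. Exact binomial tests (two-sided), Clopper-Pearson and exact Poisson intervals came from scipy 1.17.1, with a prior of 0.5 counts in folds. The binomial step was tested on simulated data. These held counting error only, so they say nothing of variation between animals. Folding energies came from RNAfold 2.7.2. The counts used here carry no molecular identifiers. Genes named are the 7 genes, the genes of 5 cell type lists, the 2 genes nearest in level to each gene with at least 10 counts in both libraries, genes sharing a seed, genes within 10 kb and 1 gene chosen after its values were seen, marked as such. The genes, lists and tests were chosen with earlier results of these data known. Alternatives were other totals, the either-strand column, other count minimums and priors, and leaving out each pup.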

Additional observations from a re-analysis of the deposited data

Results flagged for a closer look

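Reads on the strand opposite Mir203, which no comparison above uses, numbered 15 in pup 3 and 17 in pup 1, more than the 3 that a count of 0 allows. Of the either-strand counts at the gene, they made up 0.751% in pup 3, with an exact interval of 0.421% to 1.24%. In pup 1 they made up 1.23%, with an interval of 0.718% to 1.96%. Of the 168 genes with at least 1000 same-strand counts in pup 3, 153 had no opposite-strand count, and of 149 such genes in pup 1, 137 had none. Among these genes Mir203 had the highest opposite-strand share in each pup, below the share over all genes of the library, 3.22% in pup 3 and 2.69% in pup 1. The only other of them with at least 10 opposite-strand counts, Mir708, is named after its values were seen (13 in pup 3 and 16 in pup 1). RefSeq annotates a microRNA gene, Gm51289, on the minus strand there. Its arm miR-203b-5p (chr12:112130927-112130946, GRCm38.p6, seed in capitals) is the reverse complement of bases 1 to 20 of miR-203-3p.
miR-203b-5p: aGUGGUCCuaaacauuucac
Whether the reads came from that gene was not tested.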

How the results depend on the processing

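CPM depend on the total. Over all reads of the tables, in place of counts on microRNA genes, the 7 genes summed to 332 ± 42.5 CPM, against 788 ± 105 CPM. TMM-scaled totals and the either-strand column moved this sum by less than the SD over the pups. The log2 ratio of the chromosome 4 to the chromosome 6 cluster was 2.40, and 1.25 by the median over each cluster's genes. The number of the 7 genes that passed the test was 3, and 3 also with plain totals, with median-of-ratios size factors and with at least 10 counts in both libraries, where Mir141 was not tested. With all 699 genes with a count it was 1, where more genes shared the adjustment. Over all genes 185 passed, and 177 to 191 under these alternatives. Plain totals moved the median log2 fold of all tested genes to 0.073. The log2 fold of Mir205 changed sign to -0.0011 with a prior of 1 count. No paired analysis was possible because there is 1 group. Depth limits Mir200a and Mir141, with 2 to 16 counts per library.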
